A study of Homo sapiens with 6 samples.

Results

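A set of 10 genes that are typical of antibody-secreting cells was followed after PRKCN knockdown in MM.1S, a human multiple myeloma cell line. They are JCHAIN, MZB1, TXNDC5, DERL3, FKBP11, TENT5C, PIM2, ELL2, SUB1 and AMPD1. They were listed by symbol, with earlier results of these data known. All 10 were among the 21850 genes listed in the counts. Bulk RNA was sequenced at day 3, 72 h after lentiviral transduction, with 3 libraries per group. The shNT group received a scramble hairpin and is labelled wild type, and the shPRKCN group received a hairpin against PRKCN and is labelled as PRKCN knockdown. Cells of both groups carried the same kind of short hairpin RNA vector, which also encodes GFP. No untransduced cells were analysed here, and 1 cell line was used. The labels do not say which PRKCN hairpin was used, and its other effects cannot be told apart from those of PRKCN loss. The labels also do not say whether the 3 libraries of a group came from separate cultures. The p-values therefore measure the spread between these libraries, which may be technical.

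Plasma cells are the end stage of B cell development and release large amounts of antibody. Their endoplasmic reticulum (ER) is enlarged and holds the enzymes and chaperones that fold immunoglobulin chains and the machinery that removes misfolded ones. Transcription factors such as IRF4, PRDM1 and XBP1 set up this state, and myeloma cells, which descend from plasma cells, keep much of it.

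The libraries held 35625564 to 37730003 counts. PRKD3, the current symbol of PRKCN, stood at 1262 ± 41.7 CPM (counts scaled to a common library size) in shNT and 517 ± 23.4 CPM in shPRKCN libraries (mean ± SD, n = 3), which leaves 41.0% of the shNT level. Plasma cell markers were present in every library, with a summed level of 3320 to 3374 CPM in shNT and 2067 to 2143 CPM in shPRKCN. None of the 8 markers was at 3 counts or fewer in all libraries, but CD27 held only 1 to 15 counts and was too low to test. By the test given below, 5 of 7 tested markers fell, where 27.8% of all genes tested did. SDC1 rose from 896 to 1017 CPM, and CD38 stood at 36.4 and 36.1 CPM. The 8 of 9 B cell markers that were listed summed to 114.5 to 122.5 CPM in shNT and 92.3 to 94.4 CPM in shPRKCN. CIITA, at a mean of 67.0 CPM in shNT and 26.8 CPM in shPRKCN, carried the lower sum, while CD79B went up from 21.7 to 35.9 CPM. PAX5 and CD22 held at most 3 counts in each library. The 7 of 8 listed markers of T and NK cells summed to 11.2 to 12.2 CPM in shNT and 27.8 to 31.7 CPM in shPRKCN, a difference carried by CD3E, while CD3D, CD3G and KLRD1 held at most 3 counts. Myeloid markers (5 of 8 listed) summed to 0.680 to 0.991 CPM in shNT and 1.87 to 2.21 CPM in shPRKCN, with LYZ at no more than 3 counts. Stromal and epithelial markers (7 of 9 listed) summed to 1.07 to 2.21 and 0.669 to 1.86 CPM, with COL3A1 and DCN at no more than 3 counts, and HBB, the 1 listed erythroid marker of 5, to 2.18 to 3.87 and 0.922 to 1.1 CPM. Whether the marker shifts have a part in the results was not tested.

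The members did not move together after PRKCN knockdown. AMPD1, SUB1 and TXNDC5 fell most, to 21.7%, 44.6% and 47.1% of the shNT level, ELL2, MZB1 and FKBP11 fell by smaller amounts, and PIM2, DERL3 and TENT5C rose slightly. JCHAIN, by far the most abundant member, did not pass the test. A gene was said to rise or fall when its adjusted p was under 0.05 in edgeR's quasi-likelihood test over all genes, and was called when its log2 fold change also lay beyond 0.58 in either direction. By that rule 3 of the 10 members were called lower, against 10.6% of the 13971 genes tested, and 0 were called higher, against 6.15%. By adjusted p alone 6 members fell, where 27.8% of all genes did, and 3 rose, where 26.5% of all genes did. The share of rising members thus lay near that of all genes. The shNT and shPRKCN libraries did not overlap for 9 members, 6 lower and 3 higher, beside 29.8% and 29.0% of all genes. The median log2 fold change of the 10 members was -0.18, beside 0.0012 over all genes tested. In bulk RNA, fewer cells expressing a gene and less of its RNA per cell cannot be told apart.

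**Figure D1:**
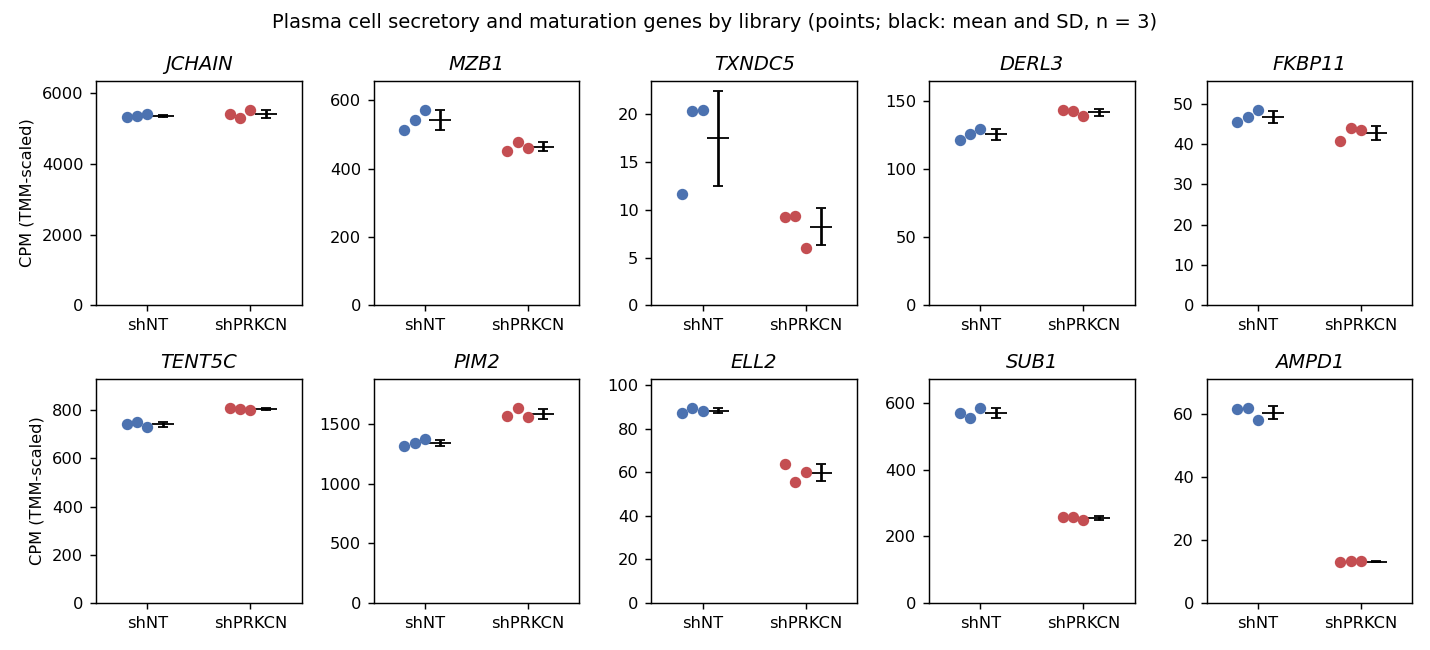
CPM of each member in the 6 libraries, with the 3 shNT libraries as blue points, the 3 shPRKCN libraries as red points, and the mean and SD in black beside them. Every vertical axis starts at 0. The groups lie far apart for AMPD1, SUB1 and ELL2 and overlap only for JCHAIN.

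Promoters from RefSeq (GRCh38.p14) were searched for letters tied to plasma cell factors, and the table held 9 promoters of 7 members, all but DERL3, ELL2 and SUB1. The 250 bases before each start site were read on both strands for GACGTG, which is the core bound by XBP1, CACGTG, which is an E-box, ATGCAAAT, which is the octamer bound by POU2F factors with POU2AF1, and for GAAANNGAAA and GGAANNGAAA, which resemble sites of IRF4 alone and with ETS factors. GACGTG and CACGTG, and likewise the last pair, differ in 1 letter and cannot match the same run of bases on the same strand. Of 35116 promoters, 6.50% held GACGTG, 6.34% CACGTG, 1.63% ATGCAAAT, 3.02% GAAANNGAAA and 2.41% GGAANNGAAA. Among the members, TXNDC5 held GACGTG, MZB1 held CACGTG within a stretch that GENCODE 29 annotates as exon, and PIM2 held the octamer once on each strand. No motif was found in the promoters of AMPD1, JCHAIN, TENT5C and FKBP11, nor in the other TXNDC5 promoter. The stretches below are shown for the 2 called members in the table and for the member with the rarest motif. Each overlaps no exon of GENCODE 29 and is written 5′ to 3′ in the direction of its gene, with matches in capitals. They cover chr1:114695619-114695796 for AMPD1, chr6:7910078-7910327 for TXNDC5 and chrX:48919025-48919274 for PIM2, all on the minus strand. The TXNDC5 stretch lies between exons of a longer transcript of that gene.
AMPD1: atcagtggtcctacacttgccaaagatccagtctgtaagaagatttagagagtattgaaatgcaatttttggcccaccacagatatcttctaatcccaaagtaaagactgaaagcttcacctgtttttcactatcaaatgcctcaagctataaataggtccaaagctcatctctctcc
TXNDC5: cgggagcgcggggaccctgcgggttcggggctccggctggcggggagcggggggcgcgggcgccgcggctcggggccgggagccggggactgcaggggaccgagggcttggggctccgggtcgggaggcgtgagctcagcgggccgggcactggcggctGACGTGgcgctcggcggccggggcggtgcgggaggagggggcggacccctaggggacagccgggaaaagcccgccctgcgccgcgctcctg
PIM2: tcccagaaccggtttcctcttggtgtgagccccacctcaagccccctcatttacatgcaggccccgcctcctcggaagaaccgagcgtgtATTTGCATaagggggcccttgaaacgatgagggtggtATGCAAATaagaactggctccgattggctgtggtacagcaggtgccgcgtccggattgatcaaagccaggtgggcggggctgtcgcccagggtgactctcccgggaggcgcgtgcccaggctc
In TXNDC5 the match begins 91 bases before the start site, and in PIM2 the matches begin 160 and 123 bases before it. The 250 bases before the start site are 37.2% G and C in AMPD1, 82.0% in TXNDC5 and 61.2% in PIM2, beside a median of 58.0% over all promoters. These matches describe the letters and do not show that a factor binds there.

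JCHAIN and MZB1 take part in the assembly of secreted antibody. JCHAIN (chr4:70655541-70681817, minus strand, positions of members from GENCODE 29 on GRCh38) encodes the joining chain that links IgM and IgA units. Its level was 5328, 5345 and 5400 CPM in the shNT libraries and 5420, 5300 and 5517 CPM in the shPRKCN libraries. The groups overlapped, with the lowest and the highest value both in shPRKCN. The log2 fold change was 0.015 (95% confidence interval -0.046 to 0.075, adjusted p = 0.71). JCHAIN took 0.527% to 0.559% of all counts and carried most of what the 10 members held together, 0.869% to 0.896% of the counts of a library. MZB1 (chr5:139387480-139390081, minus strand) encodes an ER protein that aids IgM assembly and secretion. It stood at 513, 542 and 570 CPM in shNT and at 452, 478 and 460 CPM in shPRKCN. No shPRKCN library reached the lowest shNT value, and MZB1 fell by 0.23 on the log2 scale (SE 0.035, adjusted p = 7.4e-08), inside the limit of 0.58.

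The immunoglobulin genes themselves could be followed only in part, since 15 of the 18 genes of an immunoglobulin list were not listed in the counts. IGLL5, an immunoglobulin lambda-like gene, was the most abundant listed member of that list. Its level was 7038, 7218 and 7671 CPM in shNT and 4969, 5166 and 5033 CPM in shPRKCN. The groups did not overlap, and IGLL5 fell by 0.53 on the log2 scale (SE 0.032, adjusted p = 8.0e-24), inside the limit. In GENCODE 29 the exons of IGLL5 contain 100% of the 460 exon bases of IGLC1, so reads in these bases may come from either gene. IGLC1 was not listed in the counts, so the level and fall given for IGLL5 may be those of either gene. Within each library, the log2 ratio of JCHAIN to IGLL5 in CPM was -0.40, -0.43 and -0.51 in shNT and 0.12, 0.037 and 0.13 in shPRKCN. The ratio was higher in every shPRKCN library, by 0.55 ± 0.044 (SE, n = 3 against 3, 2-sided exact permutation p = 0.1, the smallest this design allows). PIGR, the receptor that carries joined IgA and IgM across epithelia, was called higher at very low levels, with 0.0544 to 0.311 CPM in shNT and 0.685 to 1.05 CPM in shPRKCN (log2 fold change 1.96, SE 0.46, adjusted p = 0.00022).

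TXNDC5, FKBP11 and DERL3 act in the ER. TXNDC5 (chr6:7881517-7910814, minus strand), a protein disulfide isomerase, had 413, 747 and 765 counts in shNT and 347, 349 and 228 counts in shPRKCN libraries. These are 11.7, 20.3 and 20.4 CPM against 9.29, 9.39 and 6.00 CPM. The groups did not overlap, but library shNT 1 lay nearer to the shPRKCN libraries than to the other shNT libraries. TXNDC5 was called lower, by 1.09 on the log2 scale (SE 0.12, adjusted p = 6.6e-12), and it fell by 0.90 to 1.31 when any library was left out and by 0.82 with limma on log2(FPKM + 1) (adjusted p = 0.038). In GENCODE 29 it shares 60.6% of its exon bases with the readthrough gene BLOC1S5-TXNDC5 on the same strand, which held 0 to 2 counts per library. It is not given in the sources used here how reads in shared bases were counted. Such reads may have been left out of both genes, so the level and fall of TXNDC5 may rest on part of its reads.

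FKBP11 (chr12:48921518-48926474, minus strand), a prolyl isomerase of the ER membrane, showed the smallest fall among the members. It stood at 45.4, 46.7 and 48.4 CPM in shNT and 40.7, 44.0 and 43.4 CPM in shPRKCN. The libraries did not overlap, yet the gap between the highest shPRKCN and the lowest shNT library was smaller than the range within either group. FKBP11 fell by 0.13 on the log2 scale (SE 0.052, adjusted p = 0.027), but the adjusted p was 0.060 with DESeq2 and 0.17 without library shPRKCN 1. DERL3 (chr22:23834503-23839128, minus strand), which helps move misfolded proteins out of the ER, stood at 122, 126 and 130 CPM in shNT and 143, 143 and 139 CPM in shPRKCN. Every shPRKCN library lay above every shNT library, and DERL3 rose by 0.17 (SE 0.039, adjusted p = 9.9e-05). In GENCODE 29, 77.0% of its exon bases overlap SMARCB1 on the opposite strand, whose shNT libraries held 3418 to 3795 counts and whose shPRKCN libraries held 3781 to 4152. It is not given in the sources used here whether counting used the strand, so reads of DERL3 and SMARCB1 may have been mixed.

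The wider ER lists were set beside these values. Over all genes tested, 10.6% were called lower and 6.15% higher, while 27.8% fell and 26.5% rose. In none of these ER lists did the share called lower exceed that of all genes. Of 25 genes of ER folding, 0 were called in either direction, 12 fell and 5 rose. Their log2 fold changes ran from -0.47 to 0.21 around a median of -0.08. The ends of this range were P4HB, the founding protein disulfide isomerase, and CRELD2, named here after their values were seen. Of 18 genes of ER-associated degradation, 1 was called lower, 8 fell and 5 rose, with a median of -0.07. The called gene was SEL1L, a partner of the ubiquitin ligase of this pathway, at 446 to 480 CPM in shNT and 189 to 198 CPM in shPRKCN (log2 fold change -1.28, adjusted p = 6.3e-42). Of 24 genes that carry proteins into the ER, 2 were called lower, 19 fell and 1 rose, with a median of -0.30. The called genes were SPCS2, a subunit of the signal peptidase (log2 fold change -1.47, adjusted p = 6.0e-42), and SSR3, a subunit of the translocon-associated complex (-0.59, adjusted p = 9.3e-25). SSR3 lay just past the limit, and 1 gene of this list was called lower in place of 2 with library-size scaling, with glmTreat and with each of the 3 limma runs on FPKM.

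ELL2 and SUB1 act with RNA polymerase II, and TENT5C is a poly(A) polymerase. ELL2 (chr5:95885098-95962071, minus strand) is an RNA polymerase II elongation factor that favors the secreted form of immunoglobulin heavy chain RNA in plasma cells. Its level was 87.4, 89.5 and 88.2 CPM in shNT and 63.6, 55.7 and 60.2 CPM in shPRKCN. The groups were well apart, and ELL2 fell by 0.56 on the log2 scale (SE 0.046, adjusted p = 3.6e-17), just inside the limit of 0.58. Without library shPRKCN 1 it fell by 0.61 and was called, which makes 4 members called lower. Of 14 tested genes that work with ELL2 in elongation and RNA processing, 1 was called lower, 7 fell and 3 rose. Over all genes tested these shares were 10.6%, 27.8% and 26.5%. The median of the 14 genes was -0.11. The called gene was EAF2, which binds and stimulates ELL proteins, at 24.1 ± 0.787 CPM in shNT and 10.3 ± 0.531 CPM in shPRKCN (log2 fold change -1.22, adjusted p = 7.9e-22).

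SUB1 (chr5:32531633-32604079, plus strand), also called PC4, is a single-stranded DNA-binding coactivator of RNA polymerase II. It stood at 571, 554 and 585 CPM in shNT and at 257, 258 and 249 CPM in shPRKCN. Every shPRKCN library held less than every shNT library, with little spread in either group. SUB1 was called lower, by 1.16 on the log2 scale (SE 0.034, adjusted p = 1.6e-40), leaving 44.6% of the shNT level. TENT5C (chr1:117605934-117628372, plus strand), a poly(A) polymerase that is often mutated in myeloma, stood at 745, 750 and 729 CPM in shNT and 809, 807 and 799 CPM in shPRKCN. The groups did not overlap, and TENT5C rose by 0.12 (SE 0.032, adjusted p = 0.0011), well inside the limit.

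PIM2 and AMPD1 are a kinase and a metabolic enzyme. PIM2 (chrX:48913182-48919024, minus strand) encodes a serine/threonine kinase that supports growth and survival of myeloma cells. Its level was 1319, 1343 and 1371 CPM in shNT and 1569, 1635 and 1556 CPM in shPRKCN. All shPRKCN libraries lay above all shNT libraries, and PIM2 rose by 0.24 on the log2 scale (SE 0.032, adjusted p = 1.5e-09), the largest rise among the members and still inside the limit. AMPD1 (chr1:114673090-114695618, minus strand), which deaminates AMP to IMP and is best known from muscle, had 2172, 2279 and 2172 counts in shNT and 480, 496 and 504 counts in shPRKCN. These are 61.5, 62.0 and 58.0 CPM against 12.8, 13.3 and 13.3 CPM. The groups stood far apart, with 21.7% of the shNT level left. AMPD1 was called lower, by 2.20 on the log2 scale (SE 0.060, adjusted p = 2.6e-42), and only 0.451% of the genes tested had a lower log2 fold change.

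The closest relatives of the members were compared with them. Of 19 listed relatives, 15 passed the filter on low counts. Of these, 1 was called lower, 4 fell and 4 rose, beside 10.6%, 27.8% and 26.5% of all genes tested. The shares of relatives that fell and rose thus lay near those of all genes. AMPD1 fell where its relative AMPD2 rose. AMPD2 rose from 32.2 ± 1.04 to 41.8 ± 3.15 CPM (log2 fold change 0.38, adjusted p = 5.8e-08) and AMPD3 rose by 0.11 (adjusted p = 0.033, but 0.053 with DESeq2). The log2 ratio of AMPD1 to AMPD3 was -0.33, -0.32 and -0.28 in shNT and -2.65, -2.66 and -2.55 in shPRKCN libraries, a difference of -2.31 ± 0.038 (SE). Against AMPD2 the difference was -2.57 ± 0.086. PIM1, a kinase of the same family as PIM2, fell from 212 ± 4.36 to 152 ± 1.55 CPM (log2 fold change -0.48, adjusted p = 1.5e-18). The log2 ratio of PIM2 to PIM1 went from 2.67, 2.65 and 2.68 to 3.38, 3.41 and 3.35, while that of PIM2 to PIM3 overlapped between the groups. PIM3 itself had a log2 fold change of 0.13 (adjusted p = 0.10).

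FKBP14, an ER prolyl isomerase known from collagen folding, was the called relative, at 14.2 ± 0.734 CPM in shNT and 7.54 ± 0.322 CPM in shPRKCN (log2 fold change -0.91, adjusted p = 2.4e-12). The log2 ratio of FKBP11 to FKBP14 was higher by 0.78 ± 0.042 in shPRKCN, while its ratios to FKBP7 and FKBP9, both under 4 CPM, overlapped. FKBP7 and FKBP9 had log2 fold changes of -0.14 and -0.13 and did not pass the test. Among the thioredoxin-domain relatives of TXNDC5, TXNDC11 fell by 0.15 (adjusted p = 9.9e-05), TXNDC15 rose by 0.33 (adjusted p = 1.9e-08), and TXNDC12 and TXNDC16 had log2 fold changes of 0.022 and 0.042. The ratio of TXNDC5 to each of these relatives was lower in every shPRKCN library than in any shNT library, with log2 differences of -1.40 to -0.93.

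TENT5A, at 5.67 ± 0.791 CPM in shNT, fell by 0.39 (adjusted p = 0.018, but 0.16 without library shNT 3), and the ratio of TENT5C to TENT5A was higher by 0.50 ± 0.14. ELL had a log2 fold change of -0.11 (adjusted p = 0.088), and the log2 ratio of ELL2 to ELL differed by -0.45 ± 0.11. DERL1 rose by 0.09 (adjusted p = 0.046, but 0.15 without library shNT 2) and DERL2 had a log2 fold change of 0.029, and the ratios of DERL3 to both overlapped between groups. In all, 16 such ratios were compared and 11 did not overlap between the groups. Each of the 11 had an exact permutation p of 0.1, the smallest possible, and so none can pass 0.05. They are not separate results, since the ratios of TXNDC5 share that gene and those of AMPD1 share AMPD1. The share among other gene pairs was not computed. Of single genes tested, 29.8% were lower and 29.0% higher without overlap. FKBP2, FKBP10, TENT5B and ELL3 were listed but too low to test, and TENT5D was not listed in the counts.

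**Figure D2:**
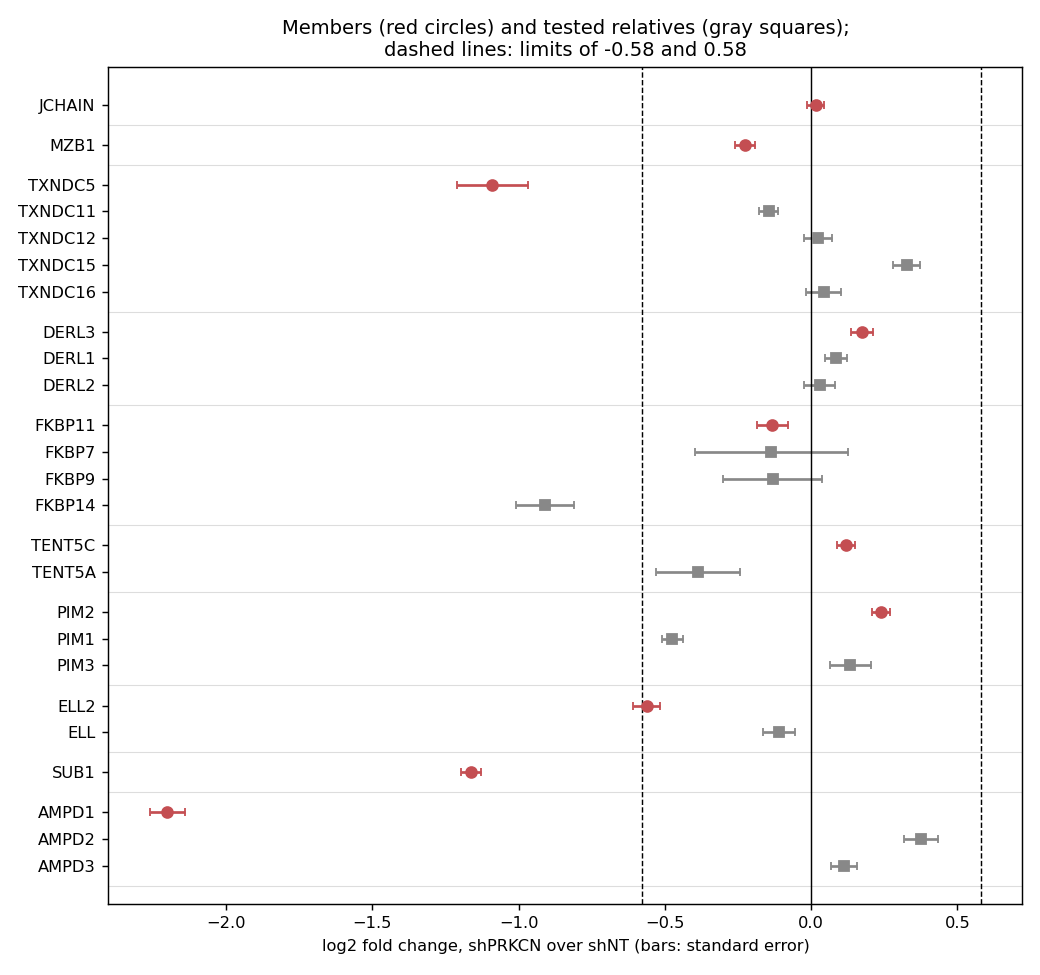
Log2 fold change, shPRKCN over shNT, with its standard error, for the 10 members as red circles and their 15 tested relatives as gray squares beneath each member. Dashed lines mark the limits of -0.58 and 0.58. AMPD1 at -2.20 lies apart from AMPD2 at 0.38 and AMPD3 at 0.11, and PIM2 at 0.24 from PIM1 at -0.48.

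Per length, the members spanned a wide range. In FPKM, which scale counts by library size and gene length, JCHAIN stood at 4136 ± 30.0 in shNT, the 15th highest level of all listed genes, and 6.43 times the next member. PIM2 at 643 ± 12.9, MZB1 at 581 ± 31.4, SUB1 at 140 ± 3.58 and TENT5C at 130 ± 2.02 FPKM followed. FKBP11 at 33.6 ± 1.09 and DERL3 at 32.6 ± 1.07 FPKM were the only neighbors in this order whose libraries overlapped. AMPD1 at 25.7 ± 0.938, ELL2 at 11.6 ± 0.165 and TXNDC5 at 5.42 ± 1.56 FPKM came last. The limits given above for the exon bases that TXNDC5 and DERL3 share with other genes hold for their places in both groups. In shPRKCN the order changed at 3 places. TENT5C, at 143 ± 1.46 FPKM, stood above SUB1, at 63.3 ± 1.02. DERL3, at 37.3 ± 0.545, stood above FKBP11, at 31.0 ± 1.11, though the libraries of these genes had overlapped in shNT. ELL2, at 7.94 ± 0.597, stood above AMPD1, at 5.67 ± 0.0956, and no neighbors in the shPRKCN order overlapped.

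**Figure D3:**
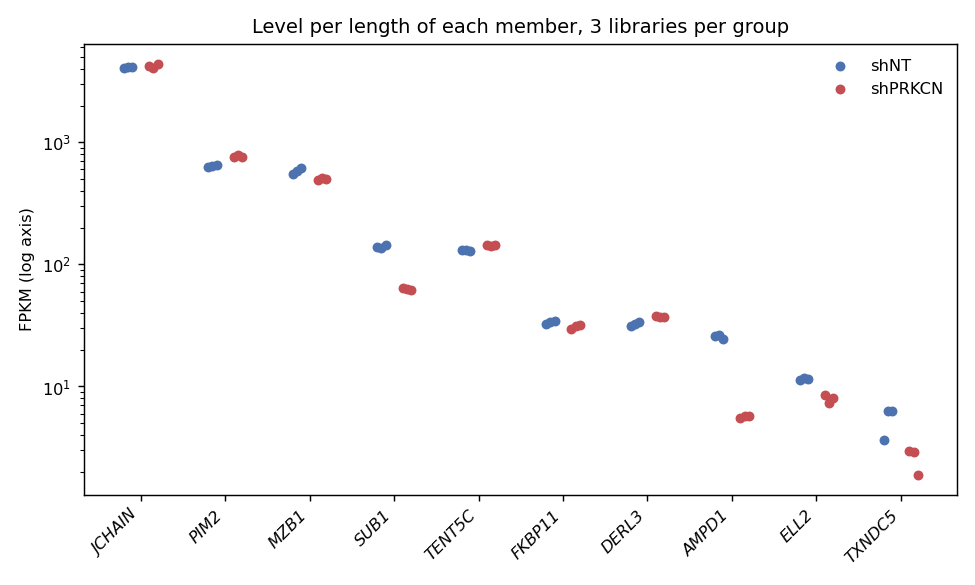
FPKM of each member on a log axis, ordered by the shNT mean, with 3 blue points for shNT and 3 red points for shPRKCN libraries. JCHAIN lies between 4097 and 4348 FPKM in all 6 libraries, and AMPD1 drops from 25.7 to 5.67 FPKM, below ELL2.

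Of 4 regulators of the plasma cell state, IRF4 and XBP1 were called lower and PRDM1 and POU2AF1 fell by less. IRF4, the factor that plasma cells and myeloma cells depend on, stood at 634, 629 and 610 CPM in shNT and 176, 173 and 170 CPM in shPRKCN, and was called lower (log2 fold change -1.85, SE 0.035, adjusted p = 5.7e-52). XBP1, the factor that drives ER expansion, stood at 912, 894 and 932 CPM in shNT and 370, 385 and 370 CPM in shPRKCN, and was also called lower (-1.28, SE 0.033, adjusted p = 1.9e-43). In both genes every shPRKCN library lay far below every shNT library. PRDM1, which shuts off the B cell program, fell by 0.54 (adjusted p = 3.4e-22), and POU2AF1, the coactivator of octamer factors, fell by 0.35 (adjusted p = 3.0e-14), both inside the limit. Of 14 tested genes of the list of plasma cell regulators, 5 were called lower, 10 fell and 1 rose. Over all genes tested these shares were 10.6%, 27.8% and 26.5%. The median of the regulator list was -0.44 beside -0.18 for the members. The list joins regulators and surface proteins of plasma cells with the ER stress genes ATF4, ATF6, ERN1 and EIF2AK3, which all fell. EIF2AK3 was among the 5 called (log2 fold change -0.75). The lists were not compared by a test.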

How the data were processed

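The authors deposited raw counts per gene and FPKM values for 21850 genes in 6 libraries, and in this deposited table the FPKM of every gene followed from its counts and 1 gene length within 0.1%. RNA was extracted with Trizol and sequenced by a company. The submitters' processing notes name FastQC, HISAT2, StringTie and GRCh38.p14. The counting program, annotation and strandedness are not given in the sources used here. Groups came from the treatment labels. Depth was 35625564 to 37730003 counts per library, and replicates were not duplicates of each other.

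After TMM scaling, filterByExpr kept 13971 genes, and the quasi-likelihood test of edgeR 4.0.16 in R 4.3.3 was run on them with Benjamini-Hochberg adjustment. The study's limits (adjusted p 0.05, log2 fold change 0.58) defined calls. CPM use TMM-scaled totals, and 3 counts were the floor. Ratios within libraries used exact permutation tests (SciPy 1.17.1, Python 3.11.15). As alternatives, each library was left out, a replicate block was added, and DESeq2 1.42.0, glmTreat, 3 other scalings (library size, RLE, upper quartile) and other filters (none, or 10 counts per library) were used. Further runs dropped the fold limit or used limma 3.58.1 on FPKM with a pseudocount of 0.1 or 1 before log2, the latter also for genes at an FPKM of 1 or more in 3 libraries. The test was also run on simulated counts of known change, drawn with the means and spread of these libraries.

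The members, lists and tests were chosen with earlier results of these data known, and the text names all members, tested relatives, up to 2 called genes per direction and list, 4 regulators and PRKD3. Genes beyond these are named to show what a list or a summed level holds. Exons are from GENCODE 29. Protein sequences were not used here.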

Additional observations from a re-analysis of the deposited data

How the results depend on the processing

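The 10 members kept their direction in all 180 values under 18 alternatives. With glmTreat and with no fold limit this was fixed, since both kept the log2 fold changes of the main edgeR fit. Of the 180 values, 173 were called, or not called, as in the main fit. The other 7 passed them, which were ELL2 without shPRKCN replicate 1 and 6 values with no fold limit. Without a library in turn, the members called lower numbered 3 to 4 with 0 called higher, and the median of the members ran from -0.21 to -0.15. The genes called lower ran from 1437 to 1487 and higher from 815 to 874. With no fold limit, 3877 genes were lower and 3700 higher, and 6 members were lower and 3 higher. limma on log2(FPKM + 1) called 648 genes lower and 315 higher, 635 and 310 with the FPKM filter, and glmTreat called 821 and 339, while each of these called the same number of members, 3 lower. The sign of 3 relatives near 0 turned when a library was left out. The log2 fold change of DERL2 ran from -0.024 to 0.069 and that of TXNDC12 from -0.0072 to 0.049, negative without shNT 2 and shPRKCN 2, respectively. That of FKBP7 ran from -0.44 to 0.017, positive without shNT 2 or shPRKCN 1 (0.016). The cause was not tested.

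Libraries with the same replicate number did not deviate together (correlations -0.042, -0.013 and 0.0040), no library correlated best with its own number, and the numbers were not taken as pairs. With the replicate block, 1463 genes were called lower and 854 higher, 3 members lower and 0 higher, with a member median of -0.18, and no call of a member changed.

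The ER translocation list had 1 gene called lower with library-size scaling, glmTreat and the limma runs, and 3 without shNT 1 or shPRKCN 3. FKBP7 and FKBP9 stood under 4 CPM in every library. Each p-value rests on 3 libraries per group.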
